A study of Mus musculus with 26 samples.

Results

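Spleens of mice that received both ovalbumin (OVA) and a synthetic copy of miR-676-3p, the libraries coded MM, were compared with spleens of saline mice, coded CT. The libraries were chosen by their labels: MM 1 to MM 5 and CT 1 to CT 5, 10 of the 26 libraries of the series. OVA is an egg-white protein used as an antigen and allergen, and a mimic is a synthetic RNA that supplies a microRNA from outside the cell. Of 56392 genes in the table, 15672 reached 1 FPKM in 5 or more of the 26 libraries and were tested. FPKM is a count of fragments scaled by gene length and library size.

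Every mouse was a female BALB/c of 8 weeks and 18 to 22 g. Saline mice had intraperitoneal injections of normal saline on days 1, 3 and 5. MM mice had OVA at 0.05 mg per day by the same route on the same days, and 7 mg per kg of the miR-676-3P mimic in a tail vein on day 3, right after the second injection. The labels give 20 mice per group but not how mice map to libraries. The p-values therefore measure the spread between these libraries, which may be technical. The code MN (5 libraries) has the same treatment text as MM, and the codes OS (6) and ON (5) stand for OVA alone. The labels define none of the codes. MM differed from saline by both OVA and the mimic, so within this comparison the effects of OVA and of the mimic cannot be told apart. MM and MN share the treatment text, yet 27 genes differed between them in limma, a count that was 1 to 54 when 1 library was left out. Whatever separates these codes may therefore also enter the comparison with saline, where it could not be told apart from the treatment.

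The spleen filters blood, removes old red cells and hosts B and T cell responses. An antigen given into the peritoneum reaches its lymphocytes and macrophages by blood and lymph. Immediate early genes such as Fos, Egr1 and Nr4a1 are transcribed within minutes of a stimulus, also during the handling of a tissue, and glucocorticoids of the stress response induce another set of genes in lymphoid cells. A microRNA binds mRNAs that match its seed, most often in the 3′ untranslated region, and lowers their stability and translation.

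The mature miR-676-3p of RefSeq (GRCm38.p6, chromosome X, 100381151 to 100381171, + strand) is shown because its seed, bases 2 to 8 in capitals, sets which transcripts could be bound. The second line is a stretch of 30 bases of the 3′ UTR of Sppl3, with the 7 bases that pair with the seed in capitals. Sppl3 was the only gene past the threshold against saline whose longest annotated 3′ UTR holds such a match.
miR-676-3p: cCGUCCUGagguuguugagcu
Sppl3 site: cgtgttggcagtgagCAGGACGcggttggt

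The 10 libraries held 14224832 to 17116273 reads, recovered from the FPKM steps, and 1 read on 1 kilobase is worth 0.0561 to 0.0794 FPKM. With no molecular identifiers named in the labels, this step covers counting error alone. B cell (Cd79a), T cell (Cd3e), red pulp (Spic) and splenic mesenchyme (Tlx1) markers were present in all 10 libraries, as for spleen, while Nkx2-5, another splenic mesenchyme gene, was at 0 in CT 4. A pair of libraries stood apart. MM 2 had 16.2% of its reads on pancreatic genes, against at most 0.00390% in the other 9, with Ctrb1, a digestive protease, at 35787 FPKM against at most 0.889. CT 4 had 6.62% of its reads on mitochondrially encoded genes against 1.26% to 2.37% in the other 9. CT 4 also had the lowest FPKM of the saline libraries for many of the genes below, and results are therefore given with and without MM 2 and CT 4.

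MM against saline compared spleens given OVA with the mimic, in the libraries coded MM, with spleens given saline. Ccn2, Errfi1, Plk2, Zfp36l2 and Pdk4 rose by more than 1 on the log2 scale, while the spliceosome gene Snrpf and a group of ribosomal protein pseudogenes fell. In limma, on log2(FPKM + 1), 47 of 15672 genes passed an adjusted p of 0.05 (0.300%), 20 higher (0.128%) and 27 lower (0.172%) in MM. An unadjusted p under 0.05 was reached by 1532 genes (9.78%), and voom on the recovered reads called 53. The 47 comprised 15 protein-coding genes, 11 of them higher, 3 long noncoding RNAs and 29 pseudogenes, 22 of them lower. Pseudogenes were 1105 of the genes tested and 2.62% of them were called, against 0.125% of 11969 protein-coding genes. In 20 of the 20 higher genes every MM library was above every saline library, and in 26 of the 27 lower ones every MM library was below (over all genes 1.20% and 0.804%). The 47 were chosen by p on these same values, so such separation follows largely from the choice and is no separate support. The count was 42 without MM 2 and CT 4, of which 28 were shared with the 47, and again 47 without CT 4, of which 34 were shared. It was 22 without MM 4, 20 without MM 5 and 17 when the 10 libraries were fitted alone. Without ON 2, which enters only through the shared spread, it was 78. None of the called genes described below changed direction in an alternative. For genes without overlap, leaving out libraries could not have reversed the direction. Of the 47 calls, 17 held whichever library was left out, and 7 held in every alternative.

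**Figure D1:**
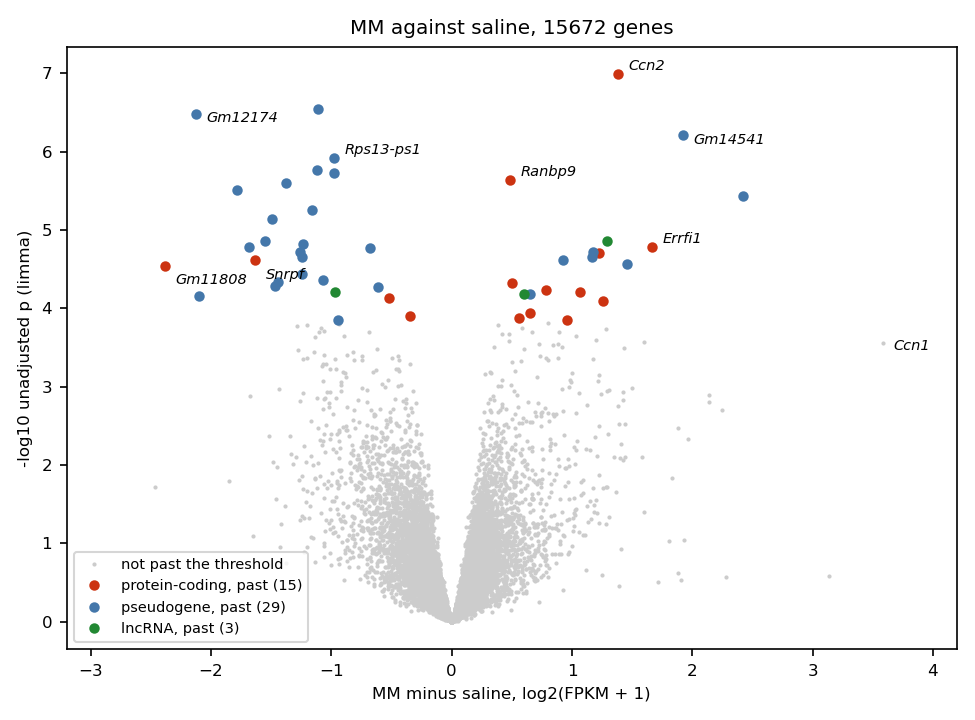
Each point is a gene, with the MM minus saline difference of log2(FPKM + 1) on the x axis and -log10 of the unadjusted limma p on the y axis. Coloured points are the 47 genes past an adjusted p of 0.05; the pseudogenes lie mostly on the lower side, 22 against 7, and the protein-coding genes mostly on the higher side, 11 against 4.

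Ccn2 had the smallest p. Ccn2 (ENSMUSG00000019997, chromosome 10, 24471340 to 24474581, + strand) encodes a secreted matricellular protein of connective tissue that TGF-beta and the YAP and TEAD factors induce; positions are as in the deposited table, which names no genome build. It measured 38.7, 30.9, 26.2, 23.9 and 47.7 FPKM in CT 1 to CT 5 and 94, 78.8, 83.9, 84.6 and 89.5 in MM 1 to MM 5. Every MM library was above every saline library, and the 5 MM values lay within a narrow band. The mean rose from 33.5 ± 9.76 to 86.2 ± 5.82 FPKM (SD, n = 5 each), a log2 difference with its standard error of 1.38 ± 0.19 (limma adjusted p = 0.00161). It was 1.31 (adjusted p = 0.00569) without MM 2 and CT 4, and Ccn2 passed in all 38 alternative fits. Since these are bulk samples, more cells that express a gene and more RNA per cell cannot be told apart.

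A secreted factor of the TGF-beta family, Bmp2, and a co-receptor of that family, Tgfbr3, were also called, with smaller differences than Ccn2. Bmp2, a bone morphogenetic protein, measured 8.32, 9.5, 10.4, 7.48 and 9.72 FPKM in CT 1 to CT 5 and 16.7, 13.3, 13.8, 15.1 and 15.1 in MM 1 to MM 5, with no overlap of the groups. The difference was 0.65 ± 0.14 (adjusted p = 0.0418), and 0.63 (adjusted p = 0.103) without MM 2 and CT 4. Tgfbr3, the co-receptor betaglycan, measured 8.37, 8.0, 7.82, 5.41 and 9.86 FPKM in CT 1 to CT 5 and 11.7, 10.8, 11.2, 13 and 13.1 in MM 1 to MM 5. Again no saline library reached the lowest MM library, with a difference of 0.56 ± 0.12 (adjusted p = 0.0465), or 0.48 (adjusted p = 0.0944) without the same libraries. Both calls were also lost when 1 of several single libraries was left out, CT 1, CT 2, MM 1, MM 4 and MM 5 among them.

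Ccn2, but neither Bmp2 nor Tgfbr3, belongs to a list of 21 tested matricellular and TGF-beta linked genes. Of these 1 rose (Ccn2, against 0.128% of all genes), none fell and the median log2 difference was 0.12, against 0.0036 over all genes tested. Ccn1, the closest relative of Ccn2 and also an immediate early gene, did not pass: 5.71, 7.57, 1.52, 1.89 and 93.3 FPKM in CT 1 to CT 5 and 223, 63.9, 71.9, 54.5 and 168 in MM 1 to MM 5. CT 5 at 93.3 FPKM was above 3 of the MM libraries, and the difference was 3.59 ± 0.84 (adjusted p = 0.0627). Sparc, a collagen-binding matrix protein and the most abundant of the list, was 105, 95.9, 96.4, 103 and 109 under saline and 91.1, 96.4, 74.8, 89.1 and 72.9 FPKM in MM, a difference of -0.27 ± 0.10 (adjusted p = 0.313).

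**Figure D2:**
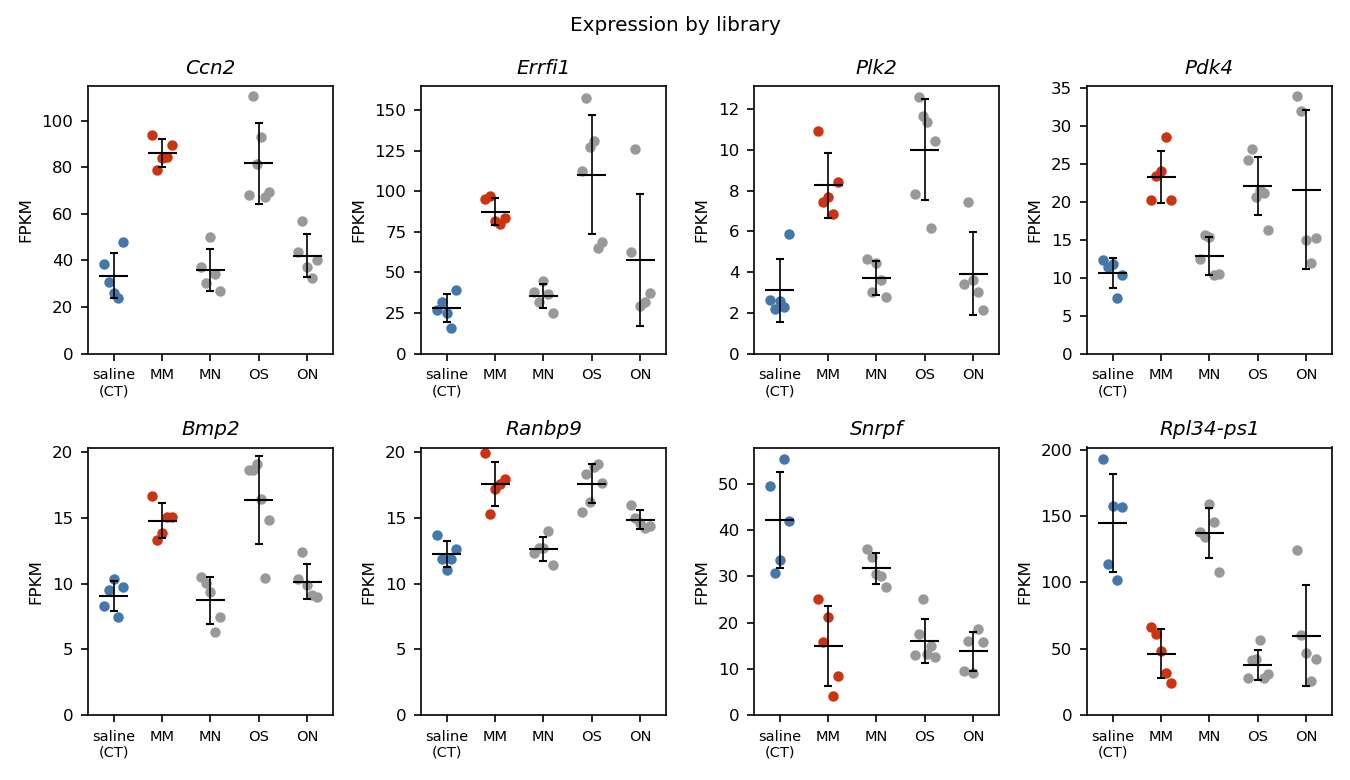
Each point is the FPKM of 1 library, for 8 genes in the saline (CT), MM, MN, OS and ON libraries; the line is the mean and the bar the SD, and the y axis starts at 0. In Ccn2, Errfi1, Plk2, Pdk4, Bmp2 and Ranbp9 all 5 MM libraries lie above all 5 saline libraries, and in Snrpf and Rpl34-ps1 all lie below.

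Among protein-coding genes past the threshold the largest rise was that of Errfi1 (ENSMUSG00000028967, chromosome 4, 150938376 to 150953349, + strand), which encodes an inhibitor of the ERBB receptor kinases. It measured 27, 31.6, 25.2, 15.9 and 39.3 FPKM in CT 1 to CT 5 and 95.2, 97, 81.7, 79.5 and 83.7 in MM 1 to MM 5. Even the lowest MM library was well above the highest saline library, CT 5. The mean rose from 27.8 ± 8.58 to 87.4 ± 8.09 FPKM, a difference of 1.67 ± 0.31 (adjusted p = 0.014). Without MM 2 and CT 4 together it was 1.45 (adjusted p = 0.0763), the 1 alternative of 38 in which the call was lost.

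Errfi1 belongs to 2 lists, sprouty and ERK feedback and the glucocorticoid response list described below. Of 9 tested genes of the sprouty and ERK feedback list, proteins that restrain growth factor signalling to the ERK kinases, 1 rose, against 0.128% of all genes, and the median difference was 0.29, with all 9 above 0. Spry4 measured 1.07, 1.51, 1.3, 0.0785 and 1.94 FPKM in CT 1 to CT 5 and 3.64, 4.27, 3.72, 3.66 and 3.21 in MM 1 to MM 5, with a difference of 1.18 ± 0.29 (adjusted p = 0.0747), and Spry1 had 0.74 ± 0.18 (adjusted p = 0.0747). In both every MM library was above every saline library, yet neither passed. The list's mean was 0.46 to 0.79 above the saline mean on the log2 scale in the 5 MM libraries and -0.23 to 0.24 in the saline libraries. Of 9 MAP kinase phosphatases, a separate list of enzymes that switch off MAP kinases such as ERK, none passed and the median was 0.52. Dusp6, which acts on ERK, was nearest at 20.1, 21, 20.2, 9.51 and 19.4 FPKM in CT 1 to CT 5 and 34.7, 24.1, 34.8, 32.4 and 30.9 in MM 1 to MM 5, with no overlap and a difference of 0.80 ± 0.18 (adjusted p = 0.0503). Without MM 2 and CT 4 it was 0.69 (adjusted p = 0.0404), past the threshold, as it was without MM 2 alone. Dusp5 (1.31 ± 0.35, adjusted p = 0.123) and Dusp1 (1.42 ± 0.40, adjusted p = 0.142) did not overlap between groups either, so 3 of 9 genes had no overlap, against 1.20% of all genes.

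Plk2 (ENSMUSG00000021701, chromosome 13, 110531580 to 110537378, + strand), a polo-like kinase whose gene responds quickly to growth factors and stress, measured 2.65, 2.17, 2.58, 2.29 and 5.85 FPKM in CT 1 to CT 5 and 10.9, 7.43, 7.67, 6.85 and 8.44 in MM 1 to MM 5. CT 5 was the one saline library near MM, and no saline library reached the MM range. The difference was 1.22 ± 0.23 (adjusted p = 0.014), and 1.19 (adjusted p = 0.0568) without MM 2 and CT 4; the call was also lost without MM 5. Among the glucocorticoid response genes, Pdk4 (ENSMUSG00000019577, chromosome 6, 5483351 to 5496309, - strand) encodes the kinase that turns off pyruvate dehydrogenase and so spares glucose. It measured 12.3, 11.4, 11.8, 7.38 and 10.3 FPKM in CT 1 to CT 5 and 20.2, 23.4, 24.1, 28.5 and 20.2 in MM 1 to MM 5, with no overlap and the highest value in MM 4. It rose by 1.07 ± 0.22 (adjusted p = 0.0264), and the value was 0.95 (adjusted p = 0.118) without the 2 libraries.

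Start sites are shown for Errfi1 and Plk2 because both promoters hold the cAMP response element TGACGTCA, in capitals, which CREB-family factors bind. The windows run from 250 bases before to 50 after the start (RefSeq, GRCm38.p6). That of Errfi1 is the second of its 2 entries (chr4:150854820-150855119, + strand, motif at -51), and the first holds no match. That of Plk2 is chr13:110394794-110395093 (+ strand, motif at -62). These windows do not adjoin the gene positions given above from the deposited table, so the 2 sets of coordinates should not be combined.
Errfi1 promoter: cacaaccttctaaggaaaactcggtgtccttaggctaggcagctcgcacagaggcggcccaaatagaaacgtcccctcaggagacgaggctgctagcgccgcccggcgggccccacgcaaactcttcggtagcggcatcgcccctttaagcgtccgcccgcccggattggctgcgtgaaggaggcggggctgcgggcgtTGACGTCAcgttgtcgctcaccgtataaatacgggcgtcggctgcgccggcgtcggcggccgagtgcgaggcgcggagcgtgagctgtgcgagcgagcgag
Plk2 promoter: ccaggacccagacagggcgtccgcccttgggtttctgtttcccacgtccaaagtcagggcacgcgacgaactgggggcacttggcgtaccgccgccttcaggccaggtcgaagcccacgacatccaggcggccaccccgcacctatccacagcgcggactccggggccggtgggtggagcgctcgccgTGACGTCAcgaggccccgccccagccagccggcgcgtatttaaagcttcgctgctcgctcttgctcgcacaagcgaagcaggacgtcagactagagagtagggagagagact

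Promoter entries matched 7 of the 11 protein-coding genes that rose. No entry was matched for Ccn2, Bmp2, Tgfbr3 or Zfp36l2, so their promoters were not searched for any motif. TGACGTCA, searched on both strands, was in 2 of the 7 and in 1.79% of 32851 promoter windows. For this and the other motifs the first is a count of genes, with Errfi1 having 2 windows, and the second a share of windows, so they are not like for like. Of the same 7, none held TGANTCA, the AP-1 motif (7.81% of windows), and 1, Errfi1 at its other entry, held GGAATG, the core of the TEAD motif (14.7%). None of the 3 motifs contains another. A match describes letters in the window and not a bound site. Dusp1, which did not pass, also held TGACGTCA, at -143 from its start.

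The glucocorticoid response list had 15 tested genes, of which 2 rose (Errfi1 and Pdk4, against 0.128% of all genes), none fell and 14 were above 0, with a median of 0.60. Without CT 4 the median was 0.48, and without CT 4 and MM 2 it was 0.41. Tsc22d3, which encodes the anti-inflammatory leucine zipper protein GILZ, measured 81.1, 70.4, 71.8, 14.7 and 73.1 FPKM in CT 1 to CT 5 and 159, 81, 154, 102 and 115 in MM 1 to MM 5. CT 4 was far below the other saline libraries and MM 2 was close to them. The difference was 1.12 ± 0.32 (adjusted p = 0.149), and 0.67 (adjusted p = 0.182) without CT 4. Ddit4, an inhibitor of mTORC1 and the most abundant of the list, was 186, 178, 192, 13.5 and 155 FPKM under saline and 205, 193, 207, 130 and 113 in MM, so that the groups overlapped and CT 4 stood apart (0.62 ± 0.48, adjusted p = 0.711). Of 16 circadian clock genes, none passed, all 16 were above 0 and the median was 0.28, or 0.18 without CT 4. Per1, a clock repressor that glucocorticoids also induce, had the smallest p of these: 14.3, 16.4, 15.6, 8.13 and 14.1 FPKM in CT 1 to CT 5 and 22.7, 40.4, 29.7, 29.9 and 22.2 in MM 1 to MM 5 (1.03 ± 0.30, adjusted p = 0.166).

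The 25 immediate early genes were all above 0, with a median of 1.01, but none passed. In 5 of 25 every MM library was above every saline library, against 1.20% of all genes. The smallest p after that of Ccn1 were those of Nr4a2 (0.98 ± 0.26, adjusted p = 0.105), Dusp5 and Myc. Myc, a driver of growth, measured 31.7, 28.3, 30.9, 15.6 and 38.7 FPKM in CT 1 to CT 5 and 81, 41, 57.3, 40.3 and 59.6 in MM 1 to MM 5 with no overlap (0.93 ± 0.27, adjusted p = 0.165). Fos, a subunit of AP-1, measured 16.4, 28.9, 16.9, 3.43 and 49.5 FPKM in CT 1 to CT 5 and 169, 44, 44.4, 38.8 and 86 in MM 1 to MM 5 (1.83 ± 0.70, adjusted p = 0.357). Nr4a1, an orphan nuclear receptor induced by antigen receptor signals, measured 18, 21.6, 18.2, 2.87 and 39.6 FPKM in CT 1 to CT 5 and 125, 52, 48.4, 34.8 and 73.4 in MM 1 to MM 5 (1.88 ± 0.58, adjusted p = 0.201). In both genes MM 1 and MM 5 were the highest MM libraries, CT 5 the highest saline library and CT 4 the lowest. The 3 most abundant genes, Btg2, Klf2 and Junb, had differences of 0.68 ± 0.29, 0.51 ± 0.42 and 1.31 ± 0.62. The list's mean over the saline mean was 1.94 in MM 1 and 0.47 in MM 4 on the log2 scale, 0.75 in CT 5 and -1.15 in CT 4. The median was 0.73 without CT 4 and 0.81 without CT 4 and MM 2.

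**Figure D3:**
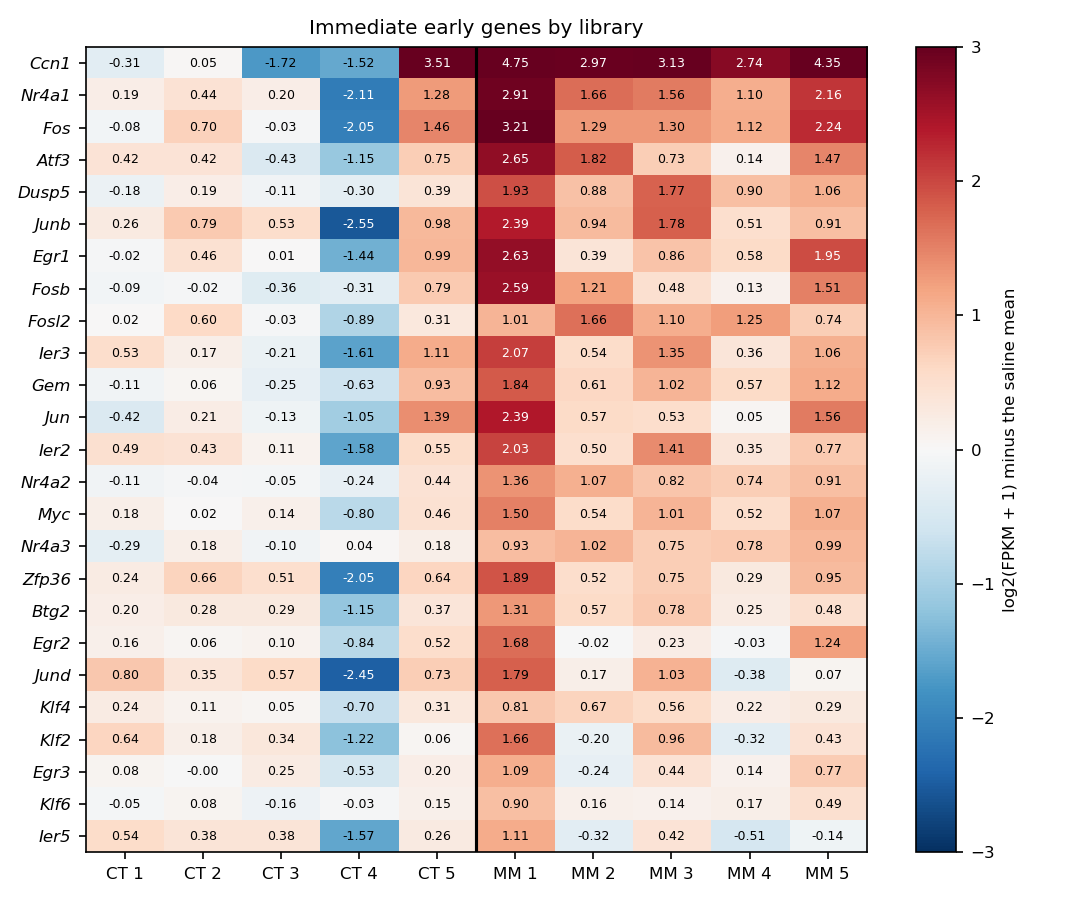
Rows are the 25 immediate early genes in the order of their difference, columns the 10 libraries, and each cell gives log2(FPKM + 1) minus the saline mean; the colour scale stops at 3 in either direction. MM 1 is high in nearly every row, CT 4 is low in most rows, and CT 5 is the highest saline library for Ccn1, at 3.51.

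Other genes that rose act in hormone sensing, RNA decay and protein turnover. Adrb1, the beta-1 adrenergic receptor, measured 3.92, 5.3, 4.53, 4.9 and 5.66 FPKM in CT 1 to CT 5 and 10.9, 12.2, 7.54, 8.34 and 7.1 in MM 1 to MM 5, with no overlap and the highest values in MM 1 and MM 2. The difference was 0.78 ± 0.16 (adjusted p = 0.0263), and 0.69 (adjusted p = 0.109) without MM 2 and CT 4. Zfp36l2, an RNA-binding protein that speeds the decay of AU-rich mRNAs, measured 126, 166, 164, 53.1 and 179 FPKM in CT 1 to CT 5 and 433, 241, 324, 276 and 280 in MM 1 to MM 5. CT 4 was far below the other saline libraries, and the groups did not overlap. The difference was 1.26 ± 0.27 (adjusted p = 0.0297), and 0.95 (adjusted p = 0.0504) without CT 4, where the call was lost.

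Ranbp9 (ENSMUSG00000038546, chromosome 13, 43556151 to 43634758, - strand), a scaffold of the CTLH ubiquitin ligase, measured 13.7, 11.9, 11, 11.9 and 12.6 FPKM in CT 1 to CT 5 and 19.9, 15.3, 17.2, 17.6 and 18 in MM 1 to MM 5, with close values within each group and no overlap. The difference was 0.49 ± 0.08 (adjusted p = 0.0044), and 0.53 (adjusted p = 0.00616) without MM 2 and CT 4. Sppl3, an intramembrane protease that cuts glycosyltransferases from the Golgi and carries the seed match printed above, measured 9.8, 8.95, 9.06, 6.24 and 8.8 FPKM in CT 1 to CT 5 and 13.2, 12.2, 12.8, 11.8 and 12 in MM 1 to MM 5. All MM libraries were above all saline libraries, with a difference of 0.50 ± 0.10 (adjusted p = 0.0233), and 0.41 (adjusted p = 0.073) without the 2 libraries. Bvht, a long noncoding RNA known from heart development, measured 4.45, 4.46, 2.28, 1.5 and 7.32 FPKM in CT 1 to CT 5 and 12.7, 9.09, 7.87, 11.8 and 10.2 in MM 1 to MM 5, with CT 5 the nearest saline library. It rose by 1.29 ± 0.24 (adjusted p = 0.014), and by 1.11 (adjusted p = 0.0404) without the 2 libraries. The other long noncoding RNAs past the threshold, chosen after their values were seen, were Gm37637 (0.60) and Gm4013 (-0.97).

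Of the genes on the lymphocyte lists Fasl alone rose, by a call close to the threshold. Fasl, the death receptor ligand of activated T and NK cells, measured 1.16, 1.93, 1.38, 0.501 and 2.91 FPKM in CT 1 to CT 5 and 4.13, 3.07, 4.8, 3.71 and 3.32 in MM 1 to MM 5. CT 5 came close to MM 2, the groups did not overlap, and the difference was 0.96 ± 0.21 (adjusted p = 0.047). That call was lost in 26 of 38 alternatives, and without CT 4 the difference was 0.78 (adjusted p = 0.104). In the list of 18 cytotoxic and NK genes 1 rose, against 0.128% of all genes, 12 were above 0 and the median was 0.09, which became -0.12 without CT 4. Gzmb, the protease granzyme B, measured 4.12, 4.43, 3.21, 2.81 and 3.52 FPKM in CT 1 to CT 5 and 10.7, 11, 13.5, 6.41 and 3.8 in MM 1 to MM 5. MM 1 to MM 4 were above every saline library and MM 5 was within the saline range, with a difference of 1.03 ± 0.24 (adjusted p = 0.0553). Gzma, granzyme A, was 43.8, 44.3, 41.8, 31.3 and 33.4 FPKM under saline and 29, 36.5, 36, 28.3 and 26.1 in MM (-0.31 ± 0.14, adjusted p = 0.452).

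The regulatory T cell and co-inhibition list had 14 genes, all above 0 and none past the threshold, with a median of 0.35. Gpr171, a receptor that restrains T cells, measured 12.6, 12.1, 11.7, 7.62 and 13.5 FPKM in CT 1 to CT 5 and 35.2, 18.6, 39.2, 32.9 and 24 in MM 1 to MM 5. The groups did not overlap and MM 2 was the lowest MM library, with a difference of 1.28 ± 0.29 (adjusted p = 0.0516). Gpr171 passed in 10 of 38 alternatives, and without MM 2 its adjusted p was 0.0335. Ctla4, the inhibitory receptor of T cells, measured 4.36, 3.47, 3.25, 1.22 and 7.6 FPKM in CT 1 to CT 5 and 20.5, 5.49, 17.1, 10.04 and 11.5 in MM 1 to MM 5. Only MM 2 was within the saline range (1.50 ± 0.40, adjusted p = 0.119). The T cell list itself, 21 genes, had a median of 0.18 and none passed, and its mean over the saline mean was -0.60 in MM 2 and 0.68 in MM 1. Without CT 4 the medians of the 2 lists were 0.22 and -0.01.

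OVA is used to raise a type 2 response. Of 16 type 2 genes none passed, 12 were above 0 and the median was 0.17, or 0.06 without CT 4. Maf, a transcription factor of type 2 helper cells, had the smallest p: 16.4, 19.3, 16.5, 15 and 21.1 FPKM in CT 1 to CT 5 and 20.02, 29.5, 19.9, 24.3 and 21.9 in MM 1 to MM 5 (0.37 ± 0.13, adjusted p = 0.301). Chil3, a lectin of alternatively activated macrophages, was 11.3, 83, 20.2, 87.4 and 17 FPKM in MM, highest in MM 2 and MM 4, against 78.4, 24, 19.5, 18.7 and 36.8 under saline. Of 16 inflammatory cytokines and chemokines none passed, with a median of 0.60 that was 0.33 without CT 4 and 0.19 without CT 4 and MM 2. Ptgs2, which makes prostaglandins, had the smallest p of these (0.98 ± 0.42, adjusted p = 0.428). Il10, the anti-inflammatory cytokine, measured 0.808, 2.01, 1.52, 0 and 1.25 FPKM in CT 1 to CT 5 and 5.36, 2.0, 4.39, 3.9 and 3.02 in MM 1 to MM 5, with 4 of 5 MM libraries above every saline library (1.21 ± 0.56, adjusted p = 0.486). Of 25 type I interferon response genes none passed and the median was -0.10. Isg15, a ubiquitin-like protein that interferon induces, measured 156, 104, 120, 140 and 76.4 FPKM in CT 1 to CT 5 and 74, 75.6, 92.5, 49.6 and 42.6 in MM 1 to MM 5, below the saline range in 4 of 5 libraries (-0.84 ± 0.30, adjusted p = 0.301).

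**Figure D4:**
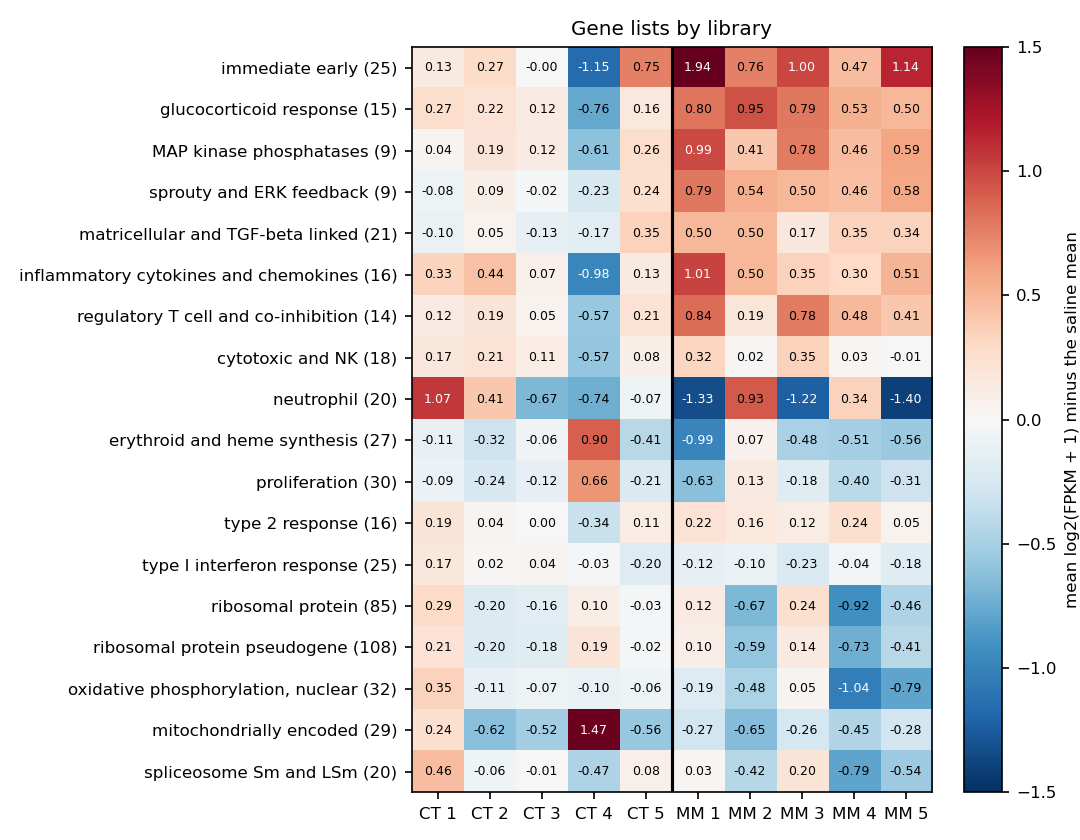
Rows are 18 gene lists with the number of tested genes, columns the 10 libraries, and each cell gives the list's mean of log2(FPKM + 1) minus the saline mean; the colour scale stops at 1.5. The glucocorticoid, MAP kinase phosphatase and sprouty rows are higher in all 5 MM libraries than in any saline library, CT 4 stands out in most rows, and the neutrophil row splits the MM libraries.

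The neutrophil list split the MM libraries. None of its 20 genes passed, and the median of -0.53 became -0.92 without MM 2, -0.76 without CT 4 and -1.17 without both. Ctsg, cathepsin G, had the smallest p (-1.39 ± 0.61, adjusted p = 0.458). S100a8, a calcium-binding protein of neutrophils, measured 2463, 1132, 510, 491 and 696 FPKM in CT 1 to CT 5 and 270, 1210, 309, 815 and 249 in MM 1 to MM 5. Elane, neutrophil elastase, measured 146, 98, 33, 96.1 and 59.6 FPKM in CT 1 to CT 5 and 15.8, 134, 20.9, 66.8 and 13.2 in MM 1 to MM 5. In both genes MM 2 and MM 4 were within the saline range and MM 1, MM 3 and MM 5 were below every saline library. The list's mean over the saline mean was -1.33, -1.22 and -1.40 in MM 1, MM 3 and MM 5, and 0.93 and 0.34 in MM 2 and MM 4. The eosinophil list, 10 genes with none called, was split the same way, at 2.35 and 1.86 in MM 2 and MM 4 and -1.07 to -0.84 in the other 3. The saline libraries ranged from -1.23 to 0.99 on it. Its median difference of 0.18 became -0.26 without MM 2, with 3 of 10 genes above 0, and -0.45 without MM 2 and CT 4.

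Erythroid genes were lower without passing. All 27 tested genes of erythroid cells and heme synthesis were below 0, with a median of -0.39. Hbb-bs, adult beta globin, measured 32468, 21892, 24887, 31361 and 20224 FPKM in CT 1 to CT 5 and 13547, 15267, 14288, 9883 and 12521 in MM 1 to MM 5. Every MM library was below every saline library (-0.99 ± 0.33, adjusted p = 0.258). The 4 adult globin genes together took 1.86% to 2.41% of reads in MM and 3.28% to 5.12% under saline. Bpgm, which makes the red cell's oxygen affinity regulator 2,3-bisphosphoglycerate, measured 99.8, 93.3, 123, 494 and 79.5 FPKM in CT 1 to CT 5 and 45.9, 62, 42.1, 55 and 44.3 in MM 1 to MM 5. CT 4 stood far above the rest, and the difference was -1.44 ± 0.39 (adjusted p = 0.121), or -0.97 (adjusted p = 0.219) without CT 4. The list's median became -0.19 with CT 4 left out, and that of 30 proliferation genes, also all below 0, went from -0.29 to -0.13. Mcm5, a subunit of the replicative helicase, measured 46.3, 53.8, 57.6, 78.2 and 58.1 FPKM in CT 1 to CT 5 and 35.8, 62.1, 41.1, 35.7 and 41 in MM 1 to MM 5, lowest in 4 of 5 MM libraries, with MM 2 within the saline range (-0.45 ± 0.23, adjusted p = 0.532).

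**Figure D5:**
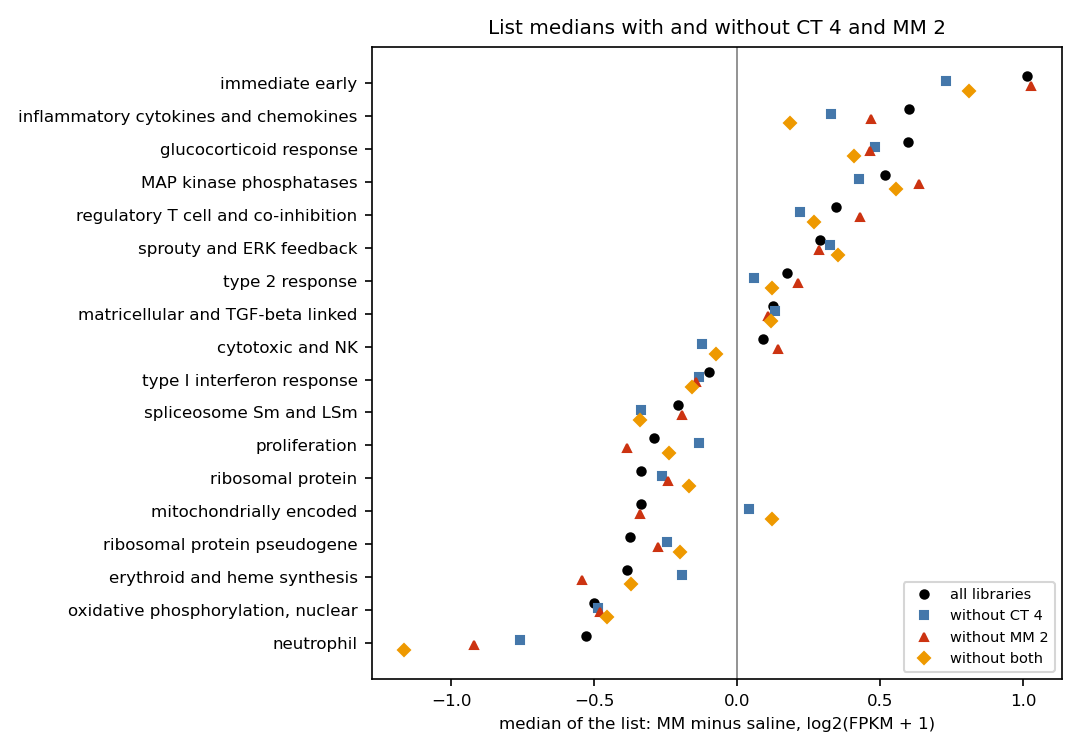
For each of 18 lists, the x axis gives the median over its tested genes of the MM minus saline difference of log2(FPKM + 1), with all libraries, without CT 4, without MM 2 and without both. The immediate early median stays the highest, from 0.73 to 1.03, while the mitochondrially encoded median goes from -0.34 to 0.04 without CT 4.

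Of the protein-coding genes that fell and carry a gene symbol of known function, Snrpf (ENSMUSG00000020018, chromosome 10, 93418891 to 93425568, - strand) led, which encodes a protein of the Sm ring of spliceosomal snRNPs. It measured 49.6, 30.6, 33.5, 55.3 and 42 FPKM in CT 1 to CT 5 and 25.2, 15.8, 21.2, 4.11 and 8.37 in MM 1 to MM 5. All MM libraries were below all saline libraries, MM 4 and MM 5 by the most. The mean fell from 42.2 ± 10.5 to 14.9 ± 8.74 FPKM, a difference of -1.63 ± 0.31 (adjusted p = 0.0144). It was -1.60 (adjusted p = 0.0568) without MM 2 and CT 4, and the call was also lost without CT 1 and without MM 5. Of 20 Sm and LSm genes 1 fell, against 0.172% of all genes, 17 were below 0 and the median was -0.21, or -0.34 without MM 2 and CT 4. Snrpg and Snrpe, further Sm proteins, had differences of -0.71 ± 0.24 and -0.69 ± 0.29 (adjusted p = 0.277 and 0.428), with overlapping groups.

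Arpp19 and Ptpn7 fell by less. Arpp19, an inhibitor of the phosphatase PP2A in mitosis, measured 17.9, 14, 13.6, 15.8 and 14.4 FPKM in CT 1 to CT 5 and 12.2, 10.01, 12.2, 7.95 and 9.36 in MM 1 to MM 5 (-0.52 ± 0.11, adjusted p = 0.0284). Ptpn7, a tyrosine phosphatase of blood cells that acts on MAP kinases, measured 14, 14.3, 13, 16 and 12.8 FPKM in CT 1 to CT 5 and 11.6, 10.9, 11, 10.4 and 10.2 in MM 1 to MM 5 (-0.34 ± 0.08, adjusted p = 0.0449). Neither gene overlapped between groups, and neither passed without MM 2 and CT 4, at -0.49 (adjusted p = 0.1) and -0.30 (adjusted p = 0.118). The fourth protein-coding gene that fell, the predicted gene Gm11808, lies outside the naming rule and was chosen after its values were seen. It measured 432, 359, 384, 220 and 373 FPKM in CT 1 to CT 5 and 104, 52.1, 126, 34.6 and 50.5 in MM 1 to MM 5, with no overlap and a difference of -2.38 ± 0.46 (adjusted p = 0.0159), and the call was lost without CT 1, without MM 4 and without MM 5.

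The naming rule adds 7 genes that did not pass on the lower side, those with the next smallest p. They were mt-Nd3 (-1.20 ± 0.27), Naa38 (-1.09 ± 0.25), mt-Co2 (-1.10 ± 0.25), Rpl37 (-0.90 ± 0.21), Ndufs6 (-1.14 ± 0.26), Llph (-0.62 ± 0.15) and mt-Atp8 (-1.27 ± 0.30), with adjusted p of 0.0504 to 0.0672. Ndufs6, a subunit of respiratory complex I, measured 51.9, 30.8, 37.9, 40.8 and 36.8 FPKM in CT 1 to CT 5 and 25.6, 18, 28.3, 10.6 and 10.7 in MM 1 to MM 5. Rpl37, a protein of the large ribosomal subunit, measured 355, 249, 284, 321 and 284 FPKM in CT 1 to CT 5 and 238, 136, 235, 101 and 130 in MM 1 to MM 5. In both, every MM library was below every saline library, and MM 2, MM 4 and MM 5 were lower than MM 1 and MM 3.

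That order held for the lists. Of 85 ribosomal protein genes none passed, 72 were below 0 and the median was -0.34. Without MM 2 and CT 4 the median was -0.17 with 24 genes above 0, and it ranged from -0.48 to -0.19 when 1 library was left out. The list's mean over the saline mean was 0.12 and 0.24 in MM 1 and MM 3, within the saline range of -0.20 to 0.29, and -0.67, -0.92 and -0.46 in MM 2, MM 4 and MM 5. Ribosomal protein genes took 7.13% and 7.61% of reads in MM 1 and MM 3, 3.38%, 3.58% and 4.85% in MM 2, MM 4 and MM 5, and 5.81% to 7.70% under saline. Among the 13 genes above 0 was Rpl24, whose values lay near an FPKM of 1 under saline. It measured 1.39, 1.43, 1.93, 0.725 and 2.16 FPKM under saline and 4.38, 2.39, 3.03, 3.27 and 3.5 in MM (0.78 ± 0.19, adjusted p = 0.0747). Rplp1, an acidic stalk protein and the most abundant of the list, was 4712, 2297, 5249, 1581 and 2387 FPKM in MM against 5555, 3504, 3492, 2023 and 3613 under saline. Of 32 nuclear genes of oxidative phosphorylation none passed and all were below 0, with a median of -0.50, which was -0.45 without MM 2 and CT 4. Cox5b, a subunit of cytochrome c oxidase, measured 88.4, 57.4, 65.3, 72.4 and 70.4 FPKM in CT 1 to CT 5 and 47, 37.9, 48.9, 19.5 and 23 in MM 1 to MM 5, with no overlap (-1.06 ± 0.26, adjusted p = 0.0747). Of 29 mitochondrially encoded genes none passed and the median of -0.34 became 0.04 without CT 4, the library with the highest share of such reads. mt-Nd3, a complex I subunit, measured 10.02, 5.62, 5.72, 22.5 and 6.03 FPKM in CT 1 to CT 5 and 5.41, 2.51, 4.39, 1.61 and 2.93 in MM 1 to MM 5. mt-Co1, a subunit of cytochrome c oxidase, measured 4350, 3766, 3574, 23941 and 4379 FPKM in CT 1 to CT 5 and 4249, 3984, 5221, 5536 and 6890 in MM 1 to MM 5 (-0.17 ± 0.35, adjusted p = 0.898). CT 4 was the highest library in both, and without it mt-Nd3 had a difference of -0.88 (adjusted p = 0.0743). The part of these shares of reads in the differences was not tested.

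Most genes that fell were pseudogenes, 22 of 27. Of 108 tested ribosomal protein pseudogenes 4 fell and 1 rose, against 0.300% of all genes and 2.62% of all pseudogenes called in either direction. In that list 80 were below 0 and the median was -0.37, or -0.20 without MM 2 and CT 4. Rps13-ps1 measured 14.7, 11, 14.6, 12.6 and 11.1 FPKM in CT 1 to CT 5 and 7.32, 5.61, 7.73, 4.69 and 5.02 in MM 1 to MM 5 (-0.98 ± 0.15, adjusted p = 0.00376). Rpl34-ps1 measured 193, 114, 158, 101 and 156 FPKM in CT 1 to CT 5 and 66.3, 61, 48.5, 31.5 and 24.1 in MM 1 to MM 5 (-1.68 ± 0.31, adjusted p = 0.014). In both, all MM libraries were below all saline libraries, and without MM 2 and CT 4 the differences were -0.96 (adjusted p = 0.0171) and -1.92 (adjusted p = 0.0158). Rpl14-ps1 measured 259, 267, 271, 581 and 329 FPKM in CT 1 to CT 5 and 195, 151, 178, 104 and 134 in MM 1 to MM 5, where CT 4 was highest and its removal left a difference of -0.91 (adjusted p = 0.00405). Rpl15-ps3 had a difference of -1.24 ± 0.23 (adjusted p = 0.014), and CT 4, at 6.07 FPKM, was below MM 1, at 6.31. Its call and that of Rpl34-ps1 were lost without MM 4, without MM 5 and with only the 10 libraries fitted. The one that rose, Rpl31-ps11, measured 0.661, 0.974, 0, 0.198 and 1.39 FPKM in CT 1 to CT 5 and 3.64, 2.53, 4.22, 2.53 and 3.82 in MM 1 to MM 5 (1.45 ± 0.28, adjusted p = 0.0159), and its call was lost in 4 of 38 alternatives, among them those without CT 3, without MM 5 and without MM 2 and CT 4.

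A processed pseudogene is an intronless copy of an mRNA, and reads from near-identical copies can be counted for either, so which copy was transcribed is uncertain for all of these. The genes they are named for did not pass. Rps13 had a difference of -0.40 ± 0.21 (adjusted p = 0.564), Rpl34 -0.35 ± 0.24 (adjusted p = 0.67), Rpl14 -0.33 ± 0.13 (adjusted p = 0.4), Rpl15 -0.21 ± 0.20 (adjusted p = 0.771) and Rpl31 -0.50 ± 0.20 (adjusted p = 0.377). Of predicted pseudogenes, chosen after their values were seen, Gm12174 measured 15, 18.9, 20.1, 48.1 and 20.6 FPKM in CT 1 to CT 5 and 4.28, 3.13, 8.8, 2.48 and 5.02 in MM 1 to MM 5 (-2.13 ± 0.31, adjusted p = 0.0017) and Gm14541 1.59, 0.390, 0.725, 0 and 1.25 FPKM in CT 1 to CT 5 and 6.18, 3.03, 9.74, 3.22 and 7.27 in MM 1 to MM 5 (1.92 ± 0.29, adjusted p = 0.00242). Over the 29 called pseudogenes the differences ran from -2.13 in Gm12174 to 2.42 in Gm19366. The groups did not overlap in Gm12174 or Gm14541, and Gm12174 passed in all 38 alternatives. The median length of the pseudogenes tested was 517 bases in the table, against 4372 for protein-coding genes.

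The seed match CAGGACG, the reverse complement of bases 2 to 8 of miR-676-3p, was sought on the transcript strand of the longest annotated 3′ UTR (GENCODE vM21) of 11891 tested genes. It was present in 360 (3.03%). Of these 1 rose (Sppl3) and none fell, with a median log2 difference of 0.02. Of the 11531 without a match 10 rose and 4 fell, with a median of 0.01. Genes with a match had longer 3′ UTRs, with a median of 2170 bases against 1107. Dusp5 also held a match, and after Sppl3 the next by p was Sem1, a small subunit of the proteasome lid, at -0.88 ± 0.23 (adjusted p = 0.0987). The entry of the miR-676 precursor gene was listed at 0 in all 26 libraries, which hold poly(A)-selected long RNA and do not measure the mature microRNA or the mimic. Of 18 genes of the microRNA machinery none passed and the median was -0.02, or 0.03 without CT 4.

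MM against MN compared 2 codes with the same treatment text. In limma 27 of 15672 genes passed (0.172%), 9 higher (0.0574%) and 18 lower (0.115%) in MM, and 1137 had an unadjusted p under 0.05 (7.25%). Ccn2 again had the smallest p. It was 27.1 to 50.2 FPKM in MN, so every MM library was above every MN library, with a difference of 1.27 ± 0.19 (adjusted p = 0.00611). Bmp2 (0.71 ± 0.14, adjusted p = 0.0353) and Ranbp9 (0.45 ± 0.08, adjusted p = 0.0194) were higher in MM, and Rps13-ps1 (-0.84 ± 0.15, adjusted p = 0.0194), Rpl34-ps1 (-1.63 ± 0.31, adjusted p = 0.0279) and Gm11808 (-2.46 ± 0.46, adjusted p = 0.0257) were lower. Errfi1, at 24.9 to 44.9 FPKM in MN, did not pass (1.31 ± 0.31, adjusted p = 0.0885), and nor did Plk2 (0.98 ± 0.23, adjusted p = 0.0857) or Snrpf (-1.26 ± 0.31, adjusted p = 0.113). The other genes with the 5 smallest p were Gm6988, Gm45133, Gm12174 and Ppp1ccb. The count depended on single libraries: it was 1 without MM 4, without MM 5 or without MN 1, 2 without MN 2 or MN 3, and 54 without CT 4.

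Against OVA alone no gene passed in limma. For MM against OS the smallest p was that of Irf4, a transcription factor of activated lymphocytes, which was 22.1, 13.9, 16.3, 19.5 and 20.1 FPKM in MM and 22.8 to 39.1 in OS. The difference was -0.75 ± 0.13 (adjusted p = 0.151). In that comparison 905 genes had an unadjusted p under 0.05 (5.77%). OS libraries ranged over 67.3 to 111 FPKM for Ccn2, 65.1 to 158 for Errfi1 and 12.6 to 25 for Snrpf, overlapping MM in each. For MM against ON the smallest p was that of Ccn2, at 1.04 ± 0.19 (adjusted p = 0.134), and 566 genes had an unadjusted p under 0.05 (3.61%). ON libraries ranged over 32.2 to 57.1 FPKM for Ccn2, below every MM library, and 29.3 to 126 for Errfi1, overlapping MM. Voom called 0 genes in each. These comparisons share the MM libraries with the one against saline.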

How the data were processed

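Spleen poly(A) RNA of 26 libraries was measured by RNA-seq. The authors deposited 1 table of FPKM per gene, on a scaled library size per the values. Software is listed without roles in the submitters' processing notes: edgeR 3.24.3, DESeq2 1.20.0, featureCounts 1.5.0-p3, HISAT2 2.0.5, StringTie 1.3.3b and CASAVA. The genome build and strand setting are not given in the sources used here, so a gene and its antisense partner may share reads. FPKM times length fell on whole multiples of 1 read (100% of values, within 0.05 of a read), which gave the recovered reads per library.

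Genes that reached 1 FPKM in 5 or more of 26 libraries were tested on log2(FPKM + 1), which understates changes of low genes, with limma 3.58.1 (R 4.3.3): 5 group means over all libraries with a trended prior, and p-values adjusted by Benjamini-Hochberg over 15672 genes at 0.05. Differences are MM minus the other group, with standard errors. Names follow a rule: the called genes with the largest changes, up to 12 each way, without predicted genes, pseudogenes and receptor segments, filled to 10 by p, plus members of 61 gene lists. The groups, members and lists were chosen with earlier results of these data known. A list is described by its counts and median, and its level in a library is the mean log2 value minus the saline mean. Of 865 listed symbols 861 matched the table. The model was run on simulated data with independent noise for each gene. No simulated library stood apart as CT 4 and MM 2 do, so that run does not cover such libraries. Alternatives left out each library, MM 2 with CT 4, and the 3 libraries with pancreatic reads (MM 2, ON 2, ON 3), and changed the libraries fitted, the replicate block, the pseudocount, the filter, the scaling and the weights, and used voom on the recovered reads. Leaving out MN, OS or ON libraries and scaling by the recovered total were added after the data were seen. 3′ UTRs came from GENCODE vM21 and promoters and the microRNA from RefSeq.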

Additional observations from a re-analysis of the deposited data

Results flagged for a closer look

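The saline and MM groups of 5 libraries each were checked for 39 genes, the 18 lists of the heat map by library and 5 library measures; other genes and lists described were not checked. In each group, a library was set apart when its gap to the nearest other, over the range, was above Dixon's 95% value of 0.71. Of 124 groups checked 18 had such a library, and 14 of the 18 were CT 4. Chance gives about 1 in 20 for a single check. The groups checked are values of the same libraries and so are not independent, and 1 unusual library can be counted many times. Among the 39 genes, those with CT 4 apart were Sppl3 (6.24 FPKM), Rpl14-ps1 (581), Gm12174 (48.1), mt-Co2 (184), Bpgm (494) and Tsc22d3 (14.7). The share of mitochondrially encoded reads in CT 4 was 6.62%. Among the 18 lists CT 4 stood apart in the mean of 7, at -0.76 for glucocorticoid response, -0.61 for MAP kinase phosphatases, -0.98 for inflammatory cytokines and chemokines, -0.57 for regulatory T cell and co-inhibition, -0.57 for cytotoxic and NK genes, 0.90 for erythroid and heme synthesis and 0.66 for proliferation. In CT 5, Plk2 (5.85 FPKM) and Ccn1 (93.3 FPKM) stood above the other saline libraries. CT 1 stood apart at 0.35 for nuclear oxidative phosphorylation genes, and MM 2 at 16.2% of reads on pancreatic genes.

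Among the genes described, 10 differed between MM and MN by limma's test of the difference, although both codes carry the same treatment text. Over all genes tested 27 of 15672 (0.172%) did. Many of the genes described were chosen for their difference from saline in these same MM libraries, so the 10 are no separate support. The count of 27 was 1 to 54 when 1 library was left out. Ccn2 (1.27), Bmp2 (0.71), Ranbp9 (0.45) and Rpl31-ps11 (1.59) were higher in MM on the log2 scale. Rps13-ps1 (-0.84), Rpl14-ps1 (-0.94), Rpl15-ps3 (-1.13), Rpl34-ps1 (-1.63), Gm12174 (-1.74) and Gm11808 (-2.46) were lower.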

How the results depend on the processing

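No gene followed under the 38 alternatives changed direction, but many alternatives could not have changed it. Leaving out an MN, OS or ON library leaves the MM minus saline difference as it was. Where the groups do not overlap, leaving out any library cannot reverse the direction. For MM against saline the count of 47 was 20 to 78 when 1 library was left out, 17 with only the 10 libraries (13 shared with the 47) and 518 with library weights (232 higher, 286 lower). The share of higher genes, 42.6%, became 63.6% (66 genes) without the 3 libraries with pancreatic reads and 55.2% (58 genes) after rescaling without pancreatic and mitochondrial genes. For MM against MN the count of 27 was 1 to 54 when 1 library was left out, 54 without MM 2 and CT 4, 123 with only those groups, 7 without the filter and 474 with library weights. For MM against OS the count of 0 was 0 to 10 when 1 library was left out, with 10 without OS 5, and 1 with library weights. For MM against ON it was 0 to 4, with 4 without ON 2, 1 without the libraries with pancreatic reads and 16 with library weights. List members called, 10 in all, were 5 to 22 when 1 library was left out, 17 without the libraries with pancreatic reads, 5 with only the groups compared, 76 with library weights and 16 by voom. The median of seed-match genes, 0.020, was 0.0013 to 0.035 when 1 library was left out, 0.048 scaled by the recovered total, 0.083 rescaled and 0.042 by voom. Under these 3 scalings the median over all genes tested moved as well, from 0.0036 to 0.031, 0.063 and 0.024. The causes of the other changes were not tested.

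With a replicate block the count was 43, of which 39 were shared. Same-numbered libraries correlated at 0.340, 0.062, -0.041, 0.161 and -0.025 in their deviations from the group means, and each had a higher correlation with another number, so the numbers were not used as pairs. Median-of-ratios scaling gave 47, since its factor was 1.01 in all 26 libraries. At 1 read per kilobase, or 0.0561 to 0.0794 FPKM, genes near an FPKM of 1 rest on few reads, and 5 libraries a group limit the precision of every difference.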

Other observations

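Cell type lists beyond those described had no gene past the threshold in limma. Of 18 core B cell genes 14 were above 0, with a median of 0.07 that became -0.03 without CT 4 (8 above 0) and 0.26 without MM 2 (18 above 0). The 13 plasma cell genes and the 13 immunoglobulin constant genes both had a median of 0.21. The 18 red pulp macrophage and iron genes had a median of 0.06, or -0.02 without MM 2 (6 above 0). The 16 dendritic cell genes had 0.03, or -0.05 without CT 4. The 13 monocyte genes and the 11 mast cell and basophil genes both had -0.04, or -0.13 and -0.10 without MM 2. Of 26 proteasome genes 24 were below 0, with a median of -0.23, or -0.10 without MM 2 and CT 4. Of 77 mitochondrial ribosomal protein genes 65 were below 0, with a median of -0.17. The 8 adipocyte genes had a median of -0.50, with 1 above 0. The list's mean over the saline mean was -1.17 to -0.21 in MM, inside the saline range of -1.24 to 0.94.

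MM 2 and MM 4 had eosinophil list means of 2.35 and 1.86, and 5 of the 16 MN, OS and ON libraries were at or above 1.45. Prg2, eosinophil major basic protein, measured 14.9, 151, 81.1, 1.16 and 202 FPKM in CT 1 to CT 5 and 6.68, 705, 9.49, 311 and 4.87 in MM 1 to MM 5. The 6 tested acinar genes of the pancreas, which MM 2 sets, had a median difference of 1.89, which was -0.01 without MM 2, and no islet gene passed the filter on low values.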
